A study of Mus musculus with 2 samples.

Results

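The proteins of the cytosolic ribosome were examined in the testis of 17 day old mice, as a set of genes named by their symbols (Rpl for the large subunit, Rps for the small subunit, Rplp for the stalk, and Rpsa). The platform annotation gave 48 such genes, read by 100 probe sets with a single symbol, out of 12393 genes and 20380 such probe sets on the array, and 47 of the 48 were bright enough to be compared. There were 24 genes of the large subunit, 22 of the small subunit and 2 of the stalk. Wild type mice and mice without UBR2 (UBR2-/-), which attaches ubiquitin to proteins with destabilizing first residues, shared a mixed 129SV and C57BL background, and the labels name 2 testes of different littermates for each genotype. Each genotype was read on 1 Affymetrix array (n = 1), so there is no replicate check, and the differences given are descriptions of 2 arrays without a test. Ratios are UBR2-/- over wild type.

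A ribosome holds a single copy of most of its proteins, so their genes are commonly expressed together and strongly in any cell that makes protein. The stalk of the large subunit recruits the translation factors, and proteins of the exit tunnel, Rpl39 among them, line the path of the new chain. Male germ cells silence the X chromosome during meiosis, and several ribosomal protein genes have relatives on other chromosomes that are used in germ cells. Rpl39l, the relative of the X-linked Rpl39, is the best known of them on this array and is expressed chiefly in male germ cells, where its protein takes the place of Rpl39 in the exit tunnel.

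The start regions of some genes on which the results turn are shown first. Paralogs and parents that code for nearly the same protein differ in the DNA before their start. Each line gives 80 bases before and 20 bases after the start listed by RefSeq (GRCm38.p6), written 5′ to 3′ along the gene. Capitals mark 2 motifs, each on either strand, where GGAAAG and TTCCGG are the reverse strand forms. CTTTCC resembles the run of pyrimidines with which many ribosomal messenger RNAs begin, but is marked here wherever it falls in the window. CCGGAA is the core bound by ETS factors.
Rpl39l (chr16:10170148-10170247, + strand): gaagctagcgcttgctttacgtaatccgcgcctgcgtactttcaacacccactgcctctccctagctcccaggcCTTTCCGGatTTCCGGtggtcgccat
Rpl39 (chrX:37085203-37085302, - strand): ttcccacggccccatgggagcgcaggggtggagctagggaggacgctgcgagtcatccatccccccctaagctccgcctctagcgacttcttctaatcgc
Rpl22l1 (chr3:28805428-28805527, + strand): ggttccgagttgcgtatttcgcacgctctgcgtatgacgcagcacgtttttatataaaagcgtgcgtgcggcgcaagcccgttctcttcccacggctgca
Rpl22 (chr4:152325646-152325745, + strand): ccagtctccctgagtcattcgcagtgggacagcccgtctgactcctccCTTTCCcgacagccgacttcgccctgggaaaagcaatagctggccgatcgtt
Rps4x (chrX:102189372-102189471, - strand): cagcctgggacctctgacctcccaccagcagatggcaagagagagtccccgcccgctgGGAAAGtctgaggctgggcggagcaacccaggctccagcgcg
Rpsa (chr9:120127686-120127785, + strand): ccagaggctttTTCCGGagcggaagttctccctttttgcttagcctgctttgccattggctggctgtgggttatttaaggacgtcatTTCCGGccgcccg
In Rpl39l the motifs overlap at the listed start, as CTTTCC and TTCCGG share bases, and a second TTCCGG follows. This overlap is not particular to Rpl39l. Rps27, whose window is not printed, has it too, with CTTTCC at base 2 and TTCCGG at base 4. Neither motif lies in the printed window of Rpl39, but CCGGAA or its reverse form does lie in its longer promoter of 300 bases. Rpl22 is shown at the first of 2 listed starts and holds CTTTCC, and Rpl22l1 holds neither. Rpsa, a small subunit protein once named as a laminin receptor, has TTCCGG on both sides of its start.

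Promoters of 300 bases (250 before and 50 after the start) were listed for 41 of the 47 genes. At the first listed start, CCGGAA was found on either strand in 26 of 41 (63.4%), against 30.8% of the 6652 compared genes with a promoter and 15.2% of all 27025 genes in the table. CTTTCC was found in 19 of 41 (46.3%), against 26.5% of compared genes. AAGATGG, the core bound by YY1, was found in 6 of 41 (14.6%, against 7.85%), and TGACGTCA, the cyclic AMP response element, in 2 of 41 (4.88%, against 3.40%). CTTTCC and TTCCGG can overlap by 4 bases, so those shares are not independent. A match is a run of letters and was not tied to a factor here. CTTTCC was counted anywhere in the 300 bases and on either strand, so its share does not show how many messengers begin with it.

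Most ribosomal protein genes were higher on the UBR2-/- array by a small and similar amount. Of the 47 compared genes, 43 had the higher signal on the UBR2-/- array, as did 58.9% of all compared genes, and 4 on the wild type array. The median log2 ratio was 0.31 (1.24-fold), with quartiles of 0.24 and 0.36. Over all 8091 compared genes the median was 0.07 and the quartiles were -0.17 and 0.28. Of the 47, 40 lay above the median of all genes, as do 50% of all compared genes by construction. With scaling on the spike-in controls, whose 42 probe sets had a median of 0.35, the ribosomal median was -0.04 and that of all genes -0.28, so the raw direction depends on the scaling. That scaling shifts every gene alike, so 16 of 47 were above 0 with it, and bright members under 0.35 as deposited (Rpl11, Rps24, Rps28, Rpl4 and Rpl7a among them) were below 0. The directions of single genes given here are those of the deposited scaling. Quantile normalization left 32 of 47 above all genes and a ribosomal median of 0.14, and with probe sets of plain names alone 11 of 20 lay above all genes, near the 50% of the background.

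**Figure D1:**
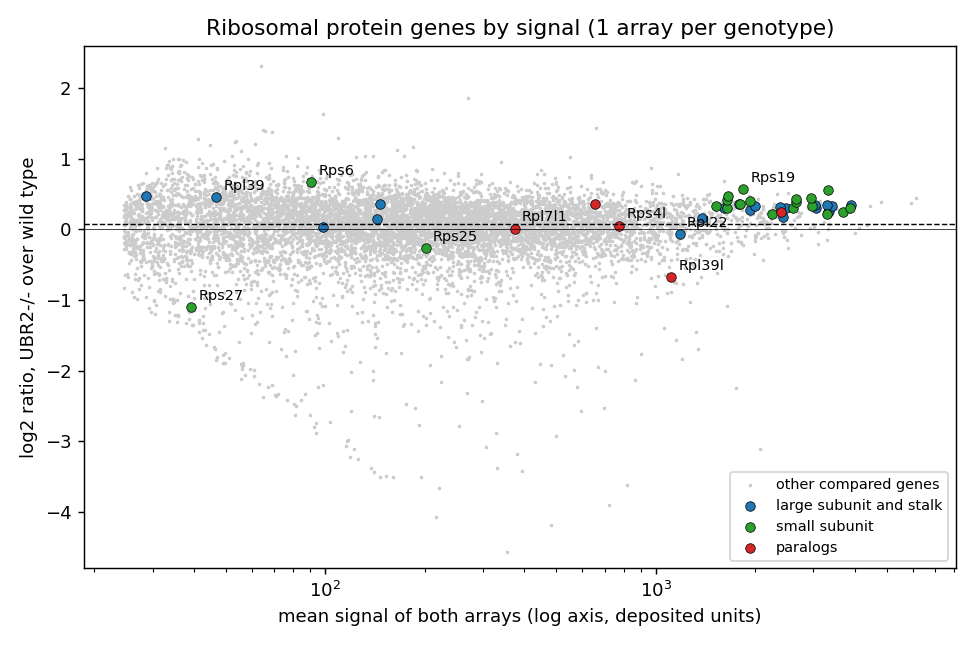
Log2 ratio of UBR2-/- over wild type against the mean signal of both arrays (log axis, deposited units) for 8091 compared genes, with ribosomal protein genes coloured by subunit and the paralogs in red. The dashed line is the median of all compared genes at 0.07. Bright ribosomal protein genes form a tight group above the line, from which Rpl39l at -0.67 and Rpl22 at -0.07 stand apart.

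Large differences were rare. At a threshold of 2-fold 0 of 47 genes were higher and 1 was lower, where 0.346% of all compared genes were higher and 3.52% lower. At 1.5-fold 1 gene was higher (Rps6) and 2 were lower (Rps27 and Rpl39l), against 4.25% and 7.71% of all compared genes. These shares are near the background and are no result about the set. The spread was narrow instead, with 34 of 47 genes (72.3%) between 0.2 and 0.5, a range chosen after the values were seen, against 27% of all compared genes.

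The bright members carried this pattern. Of 36 genes with a mean signal of 1000 or more, 34 were higher on the UBR2-/- array, with log2 ratios from 0.16 to 0.57 (1.12-fold to 1.49-fold). Their signals ran from 1299.2 to 3460 with a median of 2235.6 on the wild type array, and from 1456.3 to 4381.9 with a median of 2682.4 on the UBR2-/- array. The median log2 ratio of the 36 was 0.31, against 0.11 for 427 other genes of that brightness. Of these others, 67% had a ratio above 0, 57.1% lay above the median of all compared genes and 31.1% lay between 0.2 and 0.5, where 34, 34 and 30 of the 36 ribosomal genes did. At 2-fold 2.11% of the others were lower and 0% higher, and at 1.5-fold 4.92% were lower and 0.937% higher, where the ribosomal genes had 1 at 1.5-fold lower (Rpl39l) and no other. Between pairs of bright probe sets of the same gene, the log2 ratio of a single probe set had an SD of 0.11 over 112 genes and 0.092 over 15 ribosomal genes. That SD leaves out error between arrays and animals, since both probe sets read the same arrays.

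The small subunit and the large subunit had similar values. Without the paralogs, 20 small subunit genes had a median of 0.35 and 20 large subunit genes a median of 0.30. The stalk pair had a median of 0.34. Rps19, which is mutated in human Diamond-Blackfan anaemia, read 1479.4 in wild type and 2201.1 in UBR2-/- (log2 ratio 0.57). Rps20 had 2696.7 and 3961.2 by its brightest probe set (0.55), and its dimmer compared probe sets reached only 0.17 and 0.19. Both genes were thus at the top of the bright members, and the place of Rps20 rests on 1 of its 3 compared probe sets.

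Other small subunit genes had smaller ratios. Rps2, at the entry channel for messenger RNA, had 2490.3 and 3403.1 (0.45), and Rps18 had 2254.1 and 3046.4 (0.43). Rpsa had 1406.2 and 1880.7 (0.42). These 3 were 1.34-fold to 1.37-fold higher on the UBR2-/- array. Rps3, which also has a part in DNA repair, had 1345 and 1690.1 (0.33). Rps28 had 3460 and 4270.8 (0.30), Rps24 had 3040.6 and 3543.2 (0.22) and Rps7 had 2071.9 and 2418.3 (0.22), which places these genes at or below the ribosomal median.

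Rps6, whose protein is phosphorylated by S6 kinases when cells grow, had the highest log2 ratio of the set, 0.67, but from a dim probe set with signals of 70.1 and 111.4. The SD of 1 probe set was 0.26 at that brightness. Its other probe set with a single symbol was below the floor on both arrays.

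The stalk genes lay close together. Rplp0, the base of the stalk, read 2908 in wild type and 3711.6 in UBR2-/- (0.35), and Rplp2, an acidic stalk protein, had 3018.7 and 3805.6 (0.33). Both were brighter on the UBR2-/- array, by 1.28-fold and 1.26-fold.

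The 20 large subunit genes without paralogs had an SD of 0.13. Rpl41, the smallest protein of the ribosome, had 3432.5 and 4381.9 (0.35), with values of 0.29 to 0.44 over 4 probe sets. Rpl8 at the peptidyl transferase centre had 1568.7 and 2004.7 (0.35). Rpl7a had 2669.5 and 3387.4 (0.34) and Rpl4, which lines the exit tunnel, had 2722.8 and 3372 (0.31). Rpl35, near the tunnel exit, had 1746.1 and 2122 (0.28) with 5 compared probe sets from 0.20 to 0.28. Rpl11, which can bind and restrain the ubiquitin ligase MDM2, had 1299.2 and 1456.3 (0.16) and was the lowest of the bright members that were higher on the UBR2-/- array. All of these large subunit genes were brighter on the UBR2-/- array as deposited.

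Probe sets of the same gene mostly had the same direction. Of 19 genes with several compared probe sets, 13 had all of them above 0, 6 had them on both sides of 0 and 0 had all below 0. The widest splits were in Rps10, whose 6 probe sets ran from -0.25 to 0.45, and in Rpl37a, whose 3 ran from -0.48 to 0.22. The probe set at the low end of Rpl37a had signals of 111.5 and 79.9 against 2290.4 and 2578.6 for the brightest one. Rpl27 ranged from -0.15 to 0.30 and Rpl7 from 0.29 to 0.80.

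**Figure D2:**
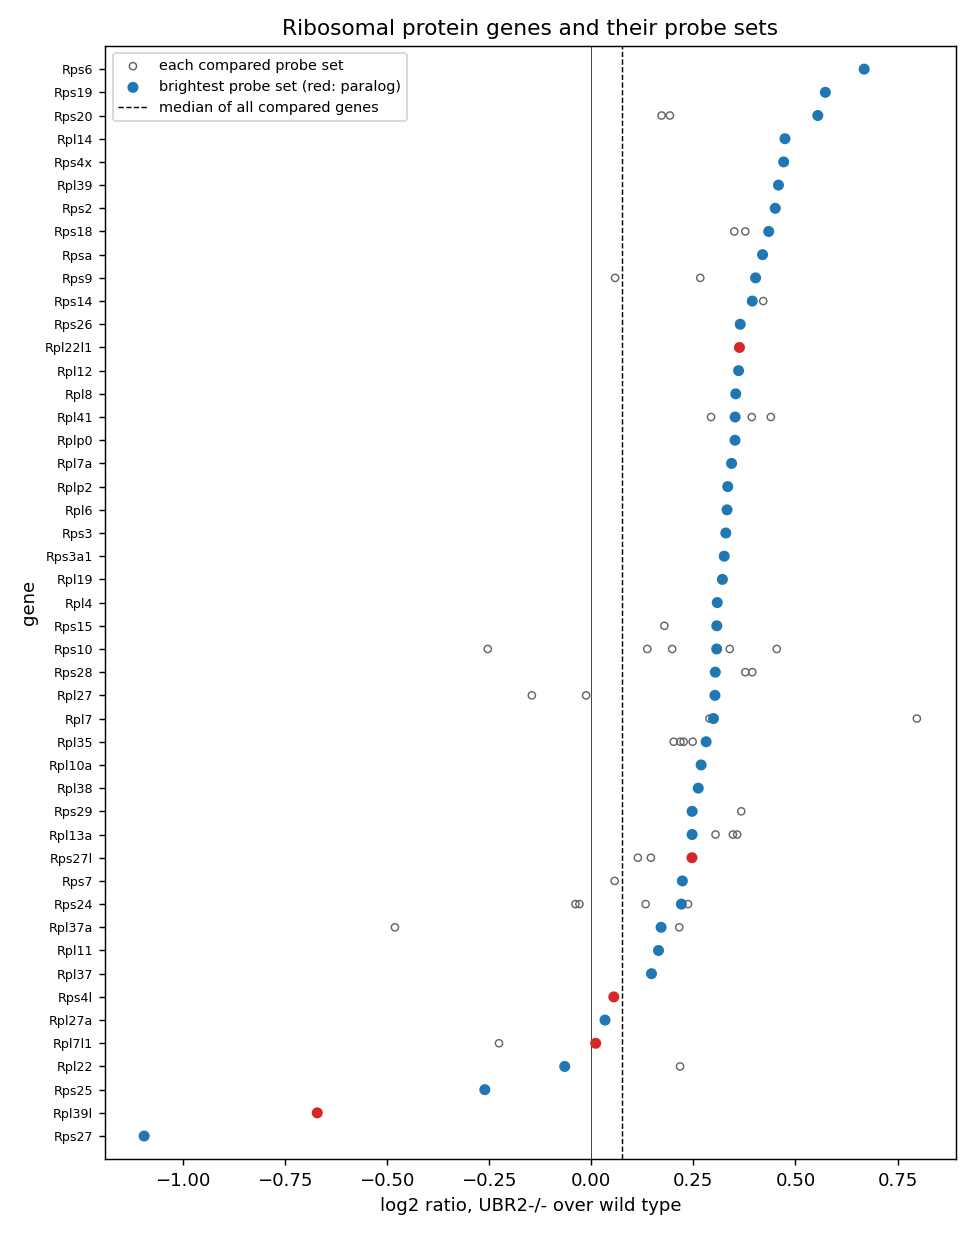
Log2 ratio of UBR2-/- over wild type for 47 ribosomal protein genes, ordered by the brightest probe set (filled points, paralogs in red), with each compared probe set as an open circle. The dashed line is the median of all compared genes at 0.07. Most filled points lie between 0.2 and 0.5, and Rps27 and Rpl39l lie farthest to the left.

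Of the 36 bright members 2 were lower on the UBR2-/- array, Rpl39l and, by less, Rpl22. The 1 probe set of Rpl39l, a gene on chromosome 16, read 1367.8 in wild type and 859.1 in UBR2-/-, which is 1.59-fold lower (log2 ratio -0.67). The difference from the ribosomal median was -0.98, beside an SD of 0.11 for a single bright probe set. Rpl39l was the second lowest of the 47, after the dim Rps27, and lay at percentile 6.22 of all compared genes. Its log2 ratio was below 0 under the deposited scaling and each of 10 alternatives. Other floors, no dim filter, the mean over probe sets and plain names could not alter it. The only probe set of Rpl39l is bright and has a plain name. The ratio was -0.67 with array-median scaling and quantile normalization, -0.75 with loess, -1.02 with spike-in scaling and -0.66 with the pseudocount. Its distance from the ribosomal median ran from -0.98 to -0.81.

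The parent Rpl39, on the X chromosome, read 39.3 in wild type and 54 in UBR2-/- (0.46) by the only probe set with a single symbol, so the log2 ratio of Rpl39l was 1.13 lower, a 2.19-fold gap. The gap between paralog and parent ran from -1.13 to -1.04 over the alternatives that kept Rpl39, which the floor at the 60th percentile did not. Only quantile normalization, loess and the pseudocount changed this gap. A shift of all genes alike cancels in it, and each gene has 1 single-symbol probe set, of plain name. The signal of Rpl39 was low, and the SD of a single probe set was 0.26 at that brightness; a further probe set for it carries a second symbol and was not used. Levels of the paralog and the parent cannot be set against each other, because different probe sets bind with different strength.

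The difference of Rpl39l was smaller than that of each late spermatocyte gene listed, though close to that of the least lowered, Tbpl1 (-0.68). In a list of 22 compared genes of pachytene and later spermatocytes, chosen with earlier results of these data known, the median was -2.49, the range was -4.57 to -0.68, 19 were at least 2-fold lower and 0 were higher. Those 19 were Ldhc, Pgk2, Crisp2, Adam3, Adam5, Ccna1, Clgn, Spag6l, Tcp11, Meig1, Pabpc2, Cetn1, Gk2, Zpbp, Acr, Ybx2, Piwil1, Dnajb3 and Spata4. Ldhc, a germ cell enzyme of lactate metabolism, had 3709.3 and 430.5 (-3.11), and Hspa2, a chaperone of late spermatocytes, had 1405 and 752.6 (-0.90). Genes of early meiotic prophase had a median of -0.06 over 14, with Sycp3 of the synaptonemal complex at 2904.1 and 2954.7 (0.02) and Sycp1 at -0.11. The log2 ratio of Rpl39l lay between these medians. In whole testis, fewer cells of a type and less RNA per cell cannot be told apart, and the part of either in these values was not tested.

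The other paralogs did not share the value of Rpl39l. Rps4l, an autosomal relative of the X-linked Rps4x, read 762 in wild type and 791.7 in UBR2-/- (0.06), while Rps4x had 1383.6 and 1918 (0.47), a gap of -0.42. Rpl7l1, a relative of Rpl7 with a part in ribosome assembly, had 372.8 and 375.6 (0.01) by its brighter probe set and -0.23 by the other. Rpl7 had 2217.1 and 2728.1 (0.30). Both paralogs were thus near the median of all genes and below their parents, although the gap of Rpl7l1, -0.29, ran from -0.57 with the mean over probe sets to -0.067 with quantile normalization.

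Rpl22l1 and Rps27l, the relatives of Rpl22 and Rps27, lay with the main group. Rpl22l1 had 573.8 and 737.9 (0.36), while Rpl22, an RNA-binding protein of the large subunit, had 1209.3 and 1156 (-0.07) by its brightest and 0.22 by its other probe set. The gap was 0.43, and 0.29 with the mean over probe sets. Rps27l had 2186.9 and 2594.5 (0.25), with 3 probe sets from 0.11 to 0.25.

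Rps27 itself had the lowest log2 ratio of the set, -1.09, from 1 dim probe set that read 53.4 in wild type and 25 in UBR2-/-. The latter lay just above the floor of 24.7, so the 2.14-fold difference is little more than a bound, and the gap of 1.34 to Rps27l rests on it. With the floor at the 60th percentile this gene was no longer compared. It was the only member at least 2-fold lower.

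**Figure D3:**
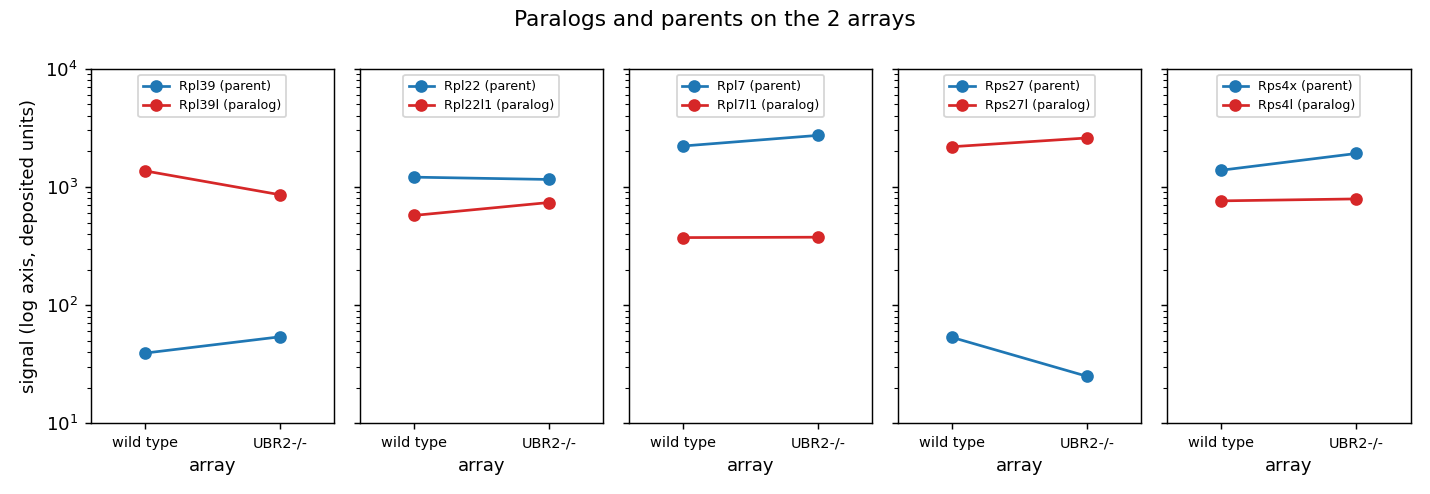
Signals (log axis, deposited units) of 5 paralogs and their parents on the wild type and the UBR2-/- array, 1 point per array. The line of Rpl39l slopes down while that of its parent slopes up, Rps27 slopes down at a dim level, Rpl22 slightly so, and the remaining lines are level or slope up. Different probe sets bind differently, so only slopes can be compared.

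Of the 8 pairs considered, 5 had both genes compared. Rpl3l, a form of skeletal and heart muscle, was below the floor on both arrays with signals of 1.1 and 3.6, and was the member left out. Rpl3, Rpl10 and Rpl36a appeared only with other symbols on the same probe set, and Rpl10l and Rpl36al were not read by a probe set with 1 symbol, so no value is given for them. Rpl10l is the autosomal relative of the X-linked Rpl10 that male meiosis needs in mice.

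Both X-linked members were above the autosomal median. Rps4x and Rpl39 had a median of 0.46 and the 45 autosomal members a median of 0.31, a gap of 0.16. Over all genes the median was 0.35 for 274 X-linked and 0.06 for 7801 autosomal genes. With 2 genes, 1 of them dim, the gap is a description only, and it was 0.28 with quantile normalization and 0.32 with probe sets of plain names. Rps4x was within the range of the autosomal members, of which Rpl14, Rps20, Rps19 and Rps6 were higher.

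Another low value came from Rps25, a small subunit protein that some viral messengers need, with signals of 219.6 and 183.3 (-0.26). At the other end, Rpl14 read 23.4 in wild type, under the floor, and 33.9 in UBR2-/-, which makes it at least 1.39-fold higher. Rpl27a had 97.4 and 99.7 (0.03), Rpl37 had 135.6 and 150.2 (0.15) and Rpl12 had 127.8 and 164.1 (0.36). Of the 5 members with a mean signal below 100, all 5 were also listed on probe sets with several symbols, as were 3 of the 6 between 100 and 1000, so their single-symbol probe sets are not their only ones.

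Those shared probe sets gave the same picture as a group. A further 102 probe sets had several symbols of which at least 1 met the name rule, and 27 ribosomal symbols were seen on such probe sets only. Of the 93 that were bright enough, 78 lay above the median of all genes, 0 were 2-fold off and the median was 0.32. In the 69 with a mean signal of 1000 or more the median was 0.36. Each carries further symbols, so no gene value is given from them. Of the single-symbol probe sets, 28 had names ending in _a_at, 2 in _s_at and 40 in _x_at, endings that mark probes shared between transcripts, and 24 of 48 genes had no other kind. The 28 compared probe sets ending in _a_at had a median of 0.33, the 38 ending in _x_at 0.25 and the 21 with plain names 0.14. The 20 genes with a compared plain probe set had a median of 0.22.

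Other genes of translation and ribosome assembly had smaller medians in most lists. Fau, which codes for a small subunit protein fused to a ubiquitin-like protein, had 1368.3 and 1778.8 (0.38). Among 11 translation elongation and related factors, 9 lay above the median of all genes and 0 were 2-fold off, with a median of 0.17. Eef1a1, which brings aminoacyl-tRNA to the ribosome, had 5136.4 and 6681.2 (0.38), and Eef2, which moves it along the messenger, had 1651.3 and 2004.9 (0.28). Non-ribosomal genes whose messengers begin with a pyrimidine run, partly the same genes, had a median of 0.18 over 20, with 14 above and 6 below all genes. Tpt1 had 0.39 and the poly(A)-binding protein gene Pabpc1 0.02, while Ybx1 and Cct4 had -0.42 and -0.38.

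The machinery that builds ribosomes did not share the ribosomal median. Of 34 ribosome biogenesis genes 16 were over and 18 under the all-gene median, 0 were 2-fold off, and the median was 0.05. The nucleolar genes Ncl and Fbl had 0.37 and 0.56 by their brightest probe sets, and the other probe set of Fbl had 0.17. Wdr12, needed for the large subunit, had -0.87. The 12 genes of RNA polymerase I and its factors had a median of 0.02, with 6 above and 6 below all genes. For Polr1a, its largest subunit, the log2 ratio was 0.08, for Polr1b it was 0.15 and for Taf1b -0.60. In the list of growth signalling to the ribosome the median was 0.27 over 11. Mtor had -0.03 by its brightest and 0.51 by its other probe set. Larp1, which binds messengers with a pyrimidine start, had -0.28, and Eif4ebp1, a repressor of cap-dependent translation, had 0.81. The 74 mitochondrial ribosomal proteins, with 36 above and 38 below all genes, had a median of 0.07, a range of -0.52 to 0.71 and 0 members 2-fold off (Mrpl1 at -0.12, Mrpl10 at 0.12).

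**Figure D4:**
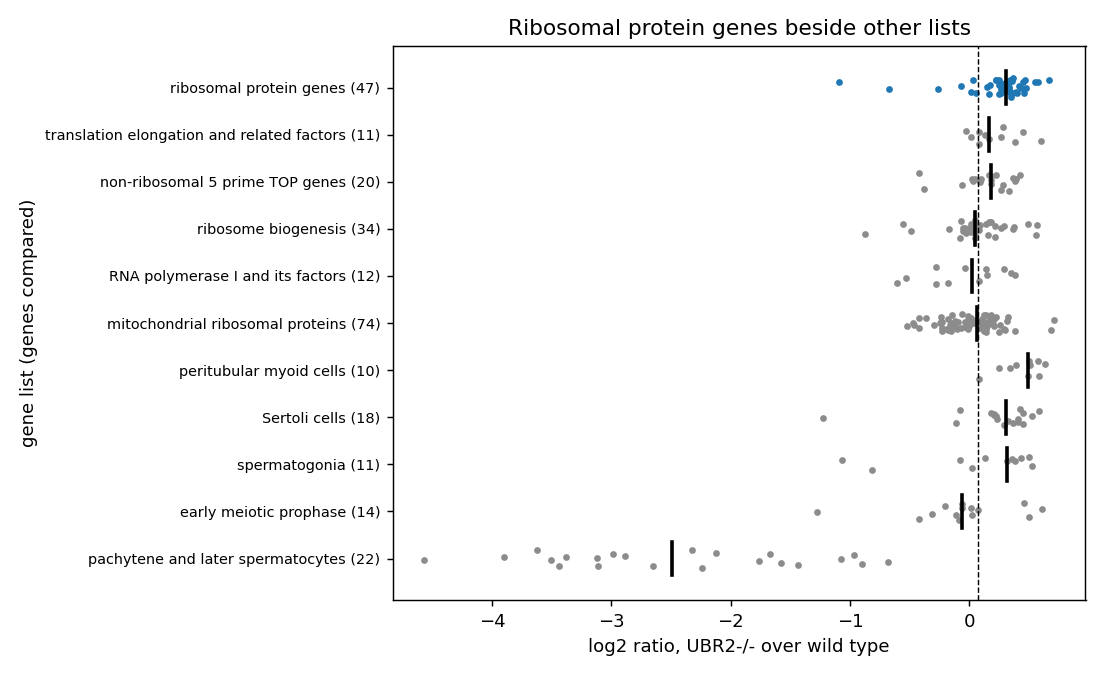
Log2 ratio of UBR2-/- over wild type for ribosomal protein genes (blue) and other gene lists (grey), 1 point per compared gene, with the list median as a black bar and the median of all compared genes (0.07) as a dashed line. The ribosomal median of 0.31 lies beside those of Sertoli cells and spermatogonia. Mitochondrial ribosomal proteins at 0.07 and ribosome biogenesis at 0.05 lie on the line. The lists of Leydig cells (median 0.11), macrophages (-0.18) and growth signalling to the ribosome (0.27) are not drawn.

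Marker lists of several other testis cells had medians near or above the ribosomal one. The median was 0.50 for 10 peritubular myoid genes (Acta2 of smooth muscle at 0.49, Myh11 at 0.64) and 0.31 for 18 Sertoli genes (Sox9 at 0.29, Fshr at 0.58). For 11 spermatogonia genes it was 0.32 (Zbtb16 at 0.02, Kit at -0.07 by its brightest and 0.97 by its other probe set). The 8 Leydig genes had 0.11 (Star at 0.80, Cyp11a1 at -0.59) and 11 macrophage genes -0.18 (Csf1r at -0.02, Adgre1 at -0.24). Members at least 2-fold off were Spo11 of early prophase at -1.27, Id4 of spermatogonia at -1.07 and Amh of Sertoli cells at -1.23, each lower. The part of these cell types in the ribosomal values was not tested. The targeted gene, Ubr2, had 57.2 and 14.3 by its 1 probe set, below the floor on the UBR2-/- array, at least 2.32-fold lower. The labels do not say whether that probe set lies in the deleted part.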

How the data were processed

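Testis RNA of 1 wild type and 1 UBR2-/- sample was hybridised to Affymetrix 430A 2.0 mouse arrays. The deposited table holds 1 linear intensity per probe set and array, for which the submitters' processing notes name MAS5; its version, its settings and a genome build are not stated there. Both deposited arrays had a 2% trimmed mean of 150.04, and this scaling was kept. Of 22626 probe sets that are no controls, 20380 had 1 symbol in the platform annotation, 691 several and 1555 none; 20351 matched the GRCm38.p6 gene table by Entrez identifier, among them all 48 members. Signals below the 40th percentile of an array (24.4 for wild type, 24.7 for UBR2-/-) were set to that value, and log2 ratios were computed afterwards. The brightest probe set stood for a gene, which was compared where the mean signal reached 24.55. Fold thresholds were 2 and 1.5. With 1 array per genotype precision is unknown, and no p-value is given.

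Members and lists were chosen with earlier results of these data known. The rule for named genes took the paralogs and parents, X-linked and stalk members, Rpsa, the 8 highest and 8 lowest members, those at the floor, those with probe sets on both sides of 0 over a range above 0.5, and from other lists the first 2 compared and those 2-fold off; others are examples chosen after their values were seen. Python 3.11.15, pandas 2.3.3, numpy 2.4.6 and statsmodels 0.14.6 were used; the scripts' calculation was tested on simulated data. Alternatives were other scalings, floors, a pseudocount of 10, no dim filter, the mean over probe sets and plain probe set names.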

Additional observations from a re-analysis of the deposited data

How the results depend on the processing

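The median of ribosomal protein genes was above that of all compared genes under each of 10 alternatives. Of these, array-median and spike-in scaling shift all genes alike before the floor and the filter. They could therefore barely alter this difference (0.2341 and 0.2364). The difference was 0.23 as reported, ran from 0.074 with quantile normalization to 0.29 without the filter on dim genes, and against other bright genes, a comparison added after seeing the data, ran from 0.12 to 0.23. The raw median turned to -0.044 with spike-in scaling. The gap of X-linked over autosomal members was 0.28 with quantile normalization and 0.32 with plain probe sets. The count of members at least 2-fold lower, 1 as reported, was 2 with spike-in scaling and 0 with the floor at the 60th percentile or a pseudocount of 10. At 1.5-fold, 0 members were higher with spike-in scaling and with the floor at the 60th percentile, which left 1 lower; 3 were lower with spike-in scaling. The changes in these counts follow from the settings. Spike-in scaling lowered all log2 ratios alike by 0.35, which took Rpl39l to -1.02, Rps25 to -0.61 and Rps6 to 0.32. The higher floor removed the dim Rps27, while Rps6 stayed compared and fell to 0.33. With the pseudocount Rps27 had -0.86. The cause of the other shifts was not tested. Spike-in scaling left 16 of 47 members above 0, where 43 were as deposited; among the 24 genes followed singly it turned Rpl7l1 to -0.34, Rpl27a to -0.32, Rps4l to -0.30, Rpl37 to -0.20, Rplp0 to -0.00024, Rplp2 to -0.018, Rpl7 to -0.053, Rps10 to -0.045, Rpl37a to -0.18 and Rps27l to -0.11. Quantile normalization turned Rpl37a to -0.039, loess turned Rpl7l1 to -0.029 and Rpl27a to -0.038, and the mean over probe sets turned Rpl22 to 0.076, Rpl7l1 to -0.11 and Rpl37a to -0.031. Of the values of these 24 genes (other named members were not followed singly), 170 moved by less than the SD of 1 probe set, 40 by more and 16 changed sign, 10 of them under spike-in scaling. No paired analysis was possible because each genotype has 1 array. Dim members are limited by their signal over background.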
